A study of Mus musculus with 5 samples.

Results

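Obox2, Obox3, Obox5, Obox6, Oog3, Oog4, Omt2a, Omt2b and Rfpl4 belong to mouse gene families that are present in several copies and known mainly from oocytes. The 9 genes were taken, dim ones included, from every probe set on the array that carried only that gene's symbol, which gave 11 probe sets for 9 of the 18193 genes measured. Obox2 and Oog3 had 2 probe sets each and the other 7 genes had 1 each. A further 2 probe sets carried a member's symbol together with that of another gene and are not used.

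The arrays compared newborn ovaries of Lhx8 null female mice with those of wild type females, all at postnatal day 0.5 and on a C57/BL6/129SVEV hybrid background. There were 3 null arrays (replicates 1, 2 and 3) and 2 wild type arrays (replicates 2 and 3), and each carried RNA from 50 ovaries pooled from at least 25 animals. LHX8 is a LIM-type homeobox regulator made by oocytes, and the comparison asks which transcripts of the newborn ovary differ in its absence. How the null allele was made, and whether the pools came from separate litters, is not given in the sources used here, so p-values measure only the spread between these pools.

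The OBOX proteins are homeodomain factors of oocytes and early embryos that act in activation of the embryonic genome. The oogenesin genes Oog3 and Oog4 encode leucine-rich repeat proteins of the PRAME family. Omt2a and Omt2b, the oocyte maturation genes, are neighbours with no other annotated gene between them (0 in RefSeq). Rfpl4, also called Rfpl4a, encodes a germ cell RING finger protein that binds cyclin B1 and the proteasome. Copies of such families can share sequence, so a probe set can also read RNA of a relative. The name endings of the array mark this: probe sets ending in s_at match several transcripts and those ending in x_at hold probes shared with other sequences. Both Obox2 probe sets end in x_at, the Oog3 probe sets end in s_at and x_at, and the other 7 end in at alone. RefSeq (GRCm38.p6) names 6 Obox genes and 47 Obox pseudogenes, so Obox values are uncertain as to the copy.

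Of the 9 genes, Omt2a, Omt2b and Rfpl4 were on in newborn wild type ovary and fell in Lhx8 null ovary, and the 6 Obox and Oog genes stood at background in both groups. The promoters of the 3 genes that fell together are shown first, as the 250 bases before the RefSeq start in GRCm38.p6, read in the direction of transcription. Capitals mark the motifs TAATTG or TAATTA (bound by NOBOX, a homeodomain factor of oocytes), TGATTG (described for LHX8) and TATAAA (the TATA box). TATAAA was searched on the sense strand, and the others on both strands.

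Omt2a, chr9:78314049-78314298, minus strand: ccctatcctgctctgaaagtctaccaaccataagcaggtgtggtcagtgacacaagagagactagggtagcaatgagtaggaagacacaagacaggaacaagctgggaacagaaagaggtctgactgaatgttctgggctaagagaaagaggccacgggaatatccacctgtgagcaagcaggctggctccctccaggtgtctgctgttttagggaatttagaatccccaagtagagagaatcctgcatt

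Omt2b, chr9:78327780-78328029, plus strand: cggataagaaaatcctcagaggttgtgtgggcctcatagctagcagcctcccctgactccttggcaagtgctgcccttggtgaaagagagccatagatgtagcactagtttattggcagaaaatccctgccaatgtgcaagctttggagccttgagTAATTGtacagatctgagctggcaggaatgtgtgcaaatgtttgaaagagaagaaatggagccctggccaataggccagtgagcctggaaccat

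Rfpl4, chr7:5116912-5117161, minus strand: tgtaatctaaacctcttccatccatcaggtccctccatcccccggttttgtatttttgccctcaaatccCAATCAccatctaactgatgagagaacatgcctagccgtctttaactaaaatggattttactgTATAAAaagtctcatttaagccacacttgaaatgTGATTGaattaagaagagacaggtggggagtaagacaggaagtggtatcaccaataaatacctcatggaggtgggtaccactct

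Rfpl4 held TGATTG at 2 places, with the first base 84 bases before the start on the sense strand and 181 bases before it on the opposite strand, and TATAAA 118 bases before the start. Omt2b held TAATTG 94 bases before the start, and Omt2a held none of the 4 motifs in this window. Among all 32851 promoters of the same length, 12.7% held TGATTG, 7.17% TAATTG, 4.84% TAATTA and 7.59% TATAAA. RefSeq promoters were found for 8 of the 9 genes, all but Obox6. Besides Omt2b, TAATTG was in the windows of Oog3 and Oog4, which makes 3 of 8, while TGATTG was in that of Rfpl4 only. TATAAA was also in 3 of 8: besides Rfpl4, in Oog3 (29 bases before the start) and Obox3 (189 bases before it). A match is a description of the letters and not a measured binding site. In a global alignment of these windows, Oog3 and Oog4 had 82.8% identical bases over 233 aligned positions. Obox2 and Obox5 had 95% identical bases over 141 aligned positions. Omt2a and Omt2b had 65.8% over 202 positions, no more than Oog4 and Rfpl4, of different families, at 66.8% over 202 positions.

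A probe set was called on in a group where every array of that group was above the 95th percentile of the 44 olfactory receptor probe sets on the same array, since olfactory receptor genes have little RNA in most tissues. That level corresponded to deposited signals of 61.7 and 66.5 on wild type replicates 2 and 3, and of 61.9, 40.5 and 60.6 on null replicates 1, 2 and 3. By this rule 53.6% of all probe sets were on in wild type ovaries and 56.9% in null ovaries. Of the 11 member probe sets, 3 were on in wild type and 0 in null ovaries. The other 8 were on neither wild type array. Omt2a and Rfpl4 were on in wild type and on no null array, as were 0.708% of all probe sets.

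The whole-series values that touch these results were few. Lhx8 itself had signals of 159 to 347.4 on the null arrays and of 5223.1 and 6450.1 on the wild type arrays, and its log2 fold change was -4.45 (SE 0.30). All 5 oocyte markers and 4 of 5 pregranulosa markers fell and none of either list rose, and all 5 pregranulosa markers were on in both groups. All 6 markers of female tract epithelium rose, with a summed signal of 12022 to 14477 on null arrays and 1714 to 1970 on wild type arrays. All 4 ovarian surface markers and 4 of 5 macrophage markers rose, 2 of 4 endothelial markers and 1 of 2 erythroid markers rose, and 0 of 4 Sertoli markers passed. The erythroid count was 0 without null replicate 1 or 2 and 2 without null replicate 3, and the macrophage count was 5 without null replicate 1. Fits without a wild type array leave 1 in that group. Among them the erythroid, endothelial, macrophage and tract epithelium counts were lower in at least 1 fit. At its 2 probe sets, the mean signal of the hybridisation control BioC on null arrays was 2.26 and 2.02 times that on wild type arrays. The Actb ratio of 3' over 5' signal, which rises as RNA degrades, was 1.48 to 1.69 on null and 1.39 and 1.43 on wild type arrays. The same ratio for Gapdh overlapped between the groups. It was 0.802, 0.658 and 0.66 on null replicates 1, 2 and 3 and 0.666 and 0.625 on wild type replicates 2 and 3. The part of these differences in the results below was not tested.

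**Figure D1:**
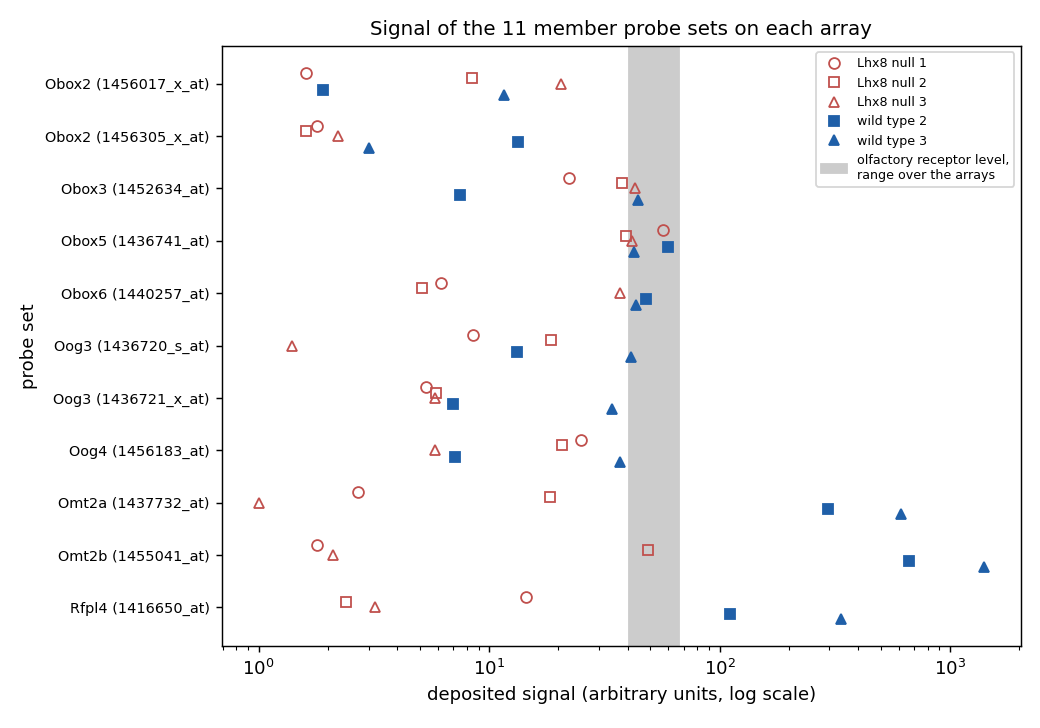
Deposited signal (arbitrary units, log scale) of each of the 11 member probe sets on each array; open red symbols are Lhx8 null arrays, filled blue symbols wild type arrays, and the grey band spans the olfactory receptor level over the 5 arrays (40.5 to 66.5). Omt2a, Omt2b and Rfpl4 had wild type signals to the right of the band, from 110.9 to 1407.6, and null signals of at most 49.0, while the 8 Obox and Oog probe sets had no signal above 59.5.

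Omt2b had the signals 667.1 and 1407.6 on wild type replicates 2 and 3, and 1.8, 49.0 and 2.1 on null replicates 1, 2 and 3. The mean was 1037 ± 524 (SD, n = 2) in wild type and 17.6 ± 27.2 (SD, n = 3) in null ovaries, and the groups did not overlap. Null replicate 2 was the brightest null array and the only one above the olfactory receptor level. The level fell by 5.16 on the log2(signal + 16) scale (SE 0.61, 95% interval -6.56 to -3.75, limma adjusted p = 0.000901). With null replicates 1 and 3, which were at background, set to the olfactory receptor level, Omt2b was 14.2-fold lower, so the fitted fall depends on signals below that level. Fewer oocytes and less RNA per oocyte cannot be told apart in these pools.

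Omt2a had the signals 294.9 and 612.6 on wild type replicates 2 and 3, and 2.7, 18.3 and 1.0 on null replicates 1, 2 and 3. All null arrays were below the olfactory receptor level, and null replicate 2 was again the brightest of them. The mean was 454 ± 225 (SD, n = 2) in wild type and 7.33 ± 9.54 (SD, n = 3) in null ovaries. The fitted log2 fold change was -4.39 (SE 0.47, 95% interval -5.46 to -3.31, limma adjusted p = 0.000583). Because the null signals were at background, the fitted fold depends on signals below that level. With each null array set to the olfactory receptor level, Omt2a was 6.95-fold lower by the wild type mean, a value without an interval.

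Rfpl4 had the signals 110.9 and 336.5 on wild type replicates 2 and 3, and 14.5, 2.4 and 3.2 on null replicates 1, 2 and 3. The mean was 224 ± 160 (SD, n = 2) in wild type and 6.70 ± 6.77 (SD, n = 3) in null ovaries. The groups did not overlap, and here null replicate 1 was the brightest null array. The log2 fold change was -3.39 (SE 0.50, 95% interval -4.54 to -2.24, limma adjusted p = 0.00246). With each null array set to the olfactory receptor level, Rfpl4 was 3.50-fold lower by the wild type mean, a value without an interval. Wild type replicate 2 was close to background: with the 99th percentile of the olfactory receptors in place of the 95th, Rfpl4 was no longer on and only Omt2a and Omt2b were.

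In the fit over all 45037 probe sets, 10.3% were called lower and 10.7% higher in null ovaries (two-sided limma test with the Benjamini-Hochberg adjustment, threshold 0.05). Of the 11 member probe sets, 3 were lower, 0 were higher and 8 did not pass. At an unadjusted p below 0.05 there were 4, the fourth being Obox6. The share of all probe sets at that unadjusted threshold was not counted, so this 4 cannot be set against it. The null arrays were below both wild type arrays for 6 of the 11, against 20.9% of all probe sets, and above both for 0, against 29.3%. The median log2 fold change was -0.77 over the 11 and -3e-04 over all probe sets. The folds depend on the constant added before the logarithm: with 64 in place of 16, Omt2b, Omt2a and Rfpl4 were at -3.70, -2.84 and -2.0, and with 1 in its place at -7.03, -6.46 and -5.20. Where the dimmest 40% of probe sets were left out, 10 of the 11 were not tested and the count was 1, Omt2b. Of the probe sets kept, 18.3% were lower and 19.3% higher. The calls of all 3 held when any of the 5 arrays was left out. Without a wild type array that group is 1 array, assumed to vary like the null arrays, and the share of all probe sets called drops to 4.79% lower and 5.52% higher without wild type replicate 2 and to 4% and 4.74% without wild type replicate 3. The smallest falls were without wild type replicate 3 (-4.63 for Omt2b, -3.90 for Omt2a and -2.72 for Rfpl4).

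**Figure D2:**
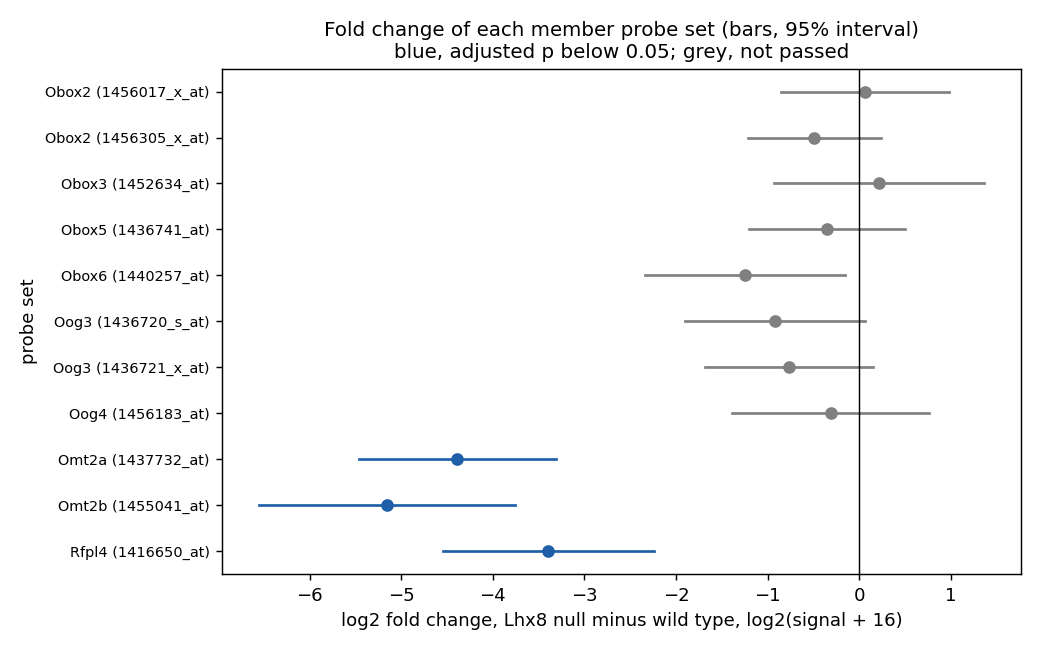
Log2 fold change (null minus wild type, on the log2(signal + 16) scale) of each member probe set, with its 95% interval; blue marks an adjusted p below 0.05 and grey marks probe sets that did not pass. Omt2b (-5.16), Omt2a (-4.39) and Rfpl4 (-3.39) lie far below 0, and the 8 Obox and Oog probe sets lie between -1.25 and 0.22.

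The Obox homeobox genes were below the olfactory receptor level on all 5 arrays. Obox6 came closest to a difference, with 48.0 and 43.5 on wild type replicates 2 and 3 and 6.2, 5.1 and 36.9 on null replicates 1, 2 and 3. All 5 values were below the olfactory receptor level, although the groups did not overlap. Its log2 fold change was -1.25 (SE 0.48, 95% interval -2.34 to -0.15, limma adjusted p = 0.105). Without null replicate 3, the brightest null array for this gene, it was -1.67 (limma adjusted p = 0.032), and without any other array it did not pass.

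Obox5 had almost the same signals in both groups, 59.5 and 42.6 on wild type replicates 2 and 3 and 56.8, 39.2 and 41.5 on null replicates 1, 2 and 3. It lay just under the olfactory receptor level on wild type replicate 2 (normalised log2 level 6.39 against 6.44) and null replicate 2 (5.72 against 5.75). Its log2 fold change was -0.35 (95% interval -1.20 to 0.50). Obox3 had 7.5 and 44.2 on the wild type arrays and 22.3, 37.9 and 43.1 on the null arrays, so that the wild type pools spanned the null pools (log2 fold change 0.22, 95% interval -0.93 to 1.36). The Obox2 probe sets had no signal above 20.5 on any array. The first read 1.9 and 11.6 on the wild type and 1.6, 8.4 and 20.5 on the null arrays. The second read 13.3 and 3.0 on the wild type and 1.8, 1.6 and 2.2 on the null arrays. Their log2 fold changes were 0.06 and -0.49 and neither passed (limma adjusted p = 0.94 and 0.334).

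The oogenesin genes were likewise at background. The Oog3 probe set ending in s_at read 13.2 and 41.1 on wild type replicates 2 and 3, against 8.5, 18.5 and 1.4 on null replicates 1, 2 and 3. The Oog3 probe set ending in x_at read 7.0 and 34.2 on the wild type arrays, against 5.3, 5.9 and 5.8 on the null arrays. Wild type replicate 3 was the brightest array for both, and wild type replicate 2 lay within or just above the null range. The log2 fold changes were -0.92 (95% interval -1.90 to 0.06) and -0.77 (95% interval -1.68 to 0.15), with limma adjusted p = 0.174 and 0.224. Oog4 read 7.1 and 37.0 on the wild type and 25.1, 20.8 and 5.8 on the null arrays, and its groups overlapped (log2 fold change -0.31, 95% interval -1.39 to 0.76). At such signals these arrays can show neither that a gene is off nor that Lhx8 loss left it unchanged.

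Omt2a, Omt2b and Rfpl4 were then set against 8 genes that mark germ cells in general (Ddx4, Dazl, Sycp3, Sycp1, Smc1b, Hormad1, Mael and Stk31). All 8 fell, with a median log2 fold change of -2.55, and unlike the members all 8 stayed on in null ovaries. The markers were brighter in wild type, at 1569.4 to 15387.1 against 110.9 to 1407.6 for the 3 members. Staying on thus does not show a smaller fall. The mean normalised log2 level of the markers was 12.53 and 12.28 on wild type replicates 2 and 3. It was 9.93, 9.55 and 10.33 on null replicates 1, 2 and 3. With that mean subtracted on each array, the fitted log2 fold change of Omt2b relative to the markers was -2.69 (SE 0.55, limma adjusted p = 2.39e-06), and that of Omt2a was -1.92 (SE 0.59, limma adjusted p = 0.00126). Rfpl4 was at -0.92 (SE 0.60, limma adjusted p = 0.123). The same mean was subtracted from every probe set, which gives them a shared spread that limma treats as nearly known. These p-values thus do not measure the spread of each gene between the pools. With the replicate number as a block, the limma adjusted p was 0.00662 for Omt2b, 0.0297 for Omt2a and 0.161 for Rfpl4. Relative to the markers, 0.22% of all probe sets were lower and 96.4% higher. The 8 Obox and Oog probe sets, at background throughout, were among the higher ones. The Omt2b call held under each of 20 alternatives with a test, while that of Omt2a was lost with 64 as the added constant (-0.45, limma adjusted p = 0.299) and without wild type replicate 3 (-1.30, limma adjusted p = 0.116), which leaves 1 wild type array. Rfpl4 passed with 1 as the constant (-2.70, limma adjusted p = 0.0064) and without wild type replicate 2 (-1.72, limma adjusted p = 0.0419), again with 1 wild type array, and stood at 0.39 with 64 (limma adjusted p = 0.357). These sizes rest on null signals below the olfactory receptor level. With such null arrays set to that level, a choice made after the data were seen, Omt2b stood at -1.36 relative to the markers, Omt2a at -0.33 and Rfpl4 at 0.66, with no test. How far Omt2a and Omt2b fell relative to the markers thus depends on signals at background.

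The wild type pools differed from each other in these genes. On wild type replicate 3 the signal of Omt2a was 2.08 times, that of Omt2b 2.11 times and that of Rfpl4 3.03 times the signal on replicate 2. After normalization the differences were 0.98, 1.04 and 1.39 on the log2 scale, and only 0.521% of the 24162 probe sets on in wild type differed by as much in that direction. The germ cell markers did not share this: their median difference was -0.27, and 2 of 8 were higher on replicate 3. Among the 5 oocyte markers, Zp3 (1.05) and Gdf9 (0.80) were also higher on replicate 3. Nobox (0.04), Figla (-0.06) and Kit (-0.12) differed little. No test was made, with 1 array on each side. The same direction was seen in 5 of the 8 Obox and Oog probe sets, all at background.

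**Figure D3:**
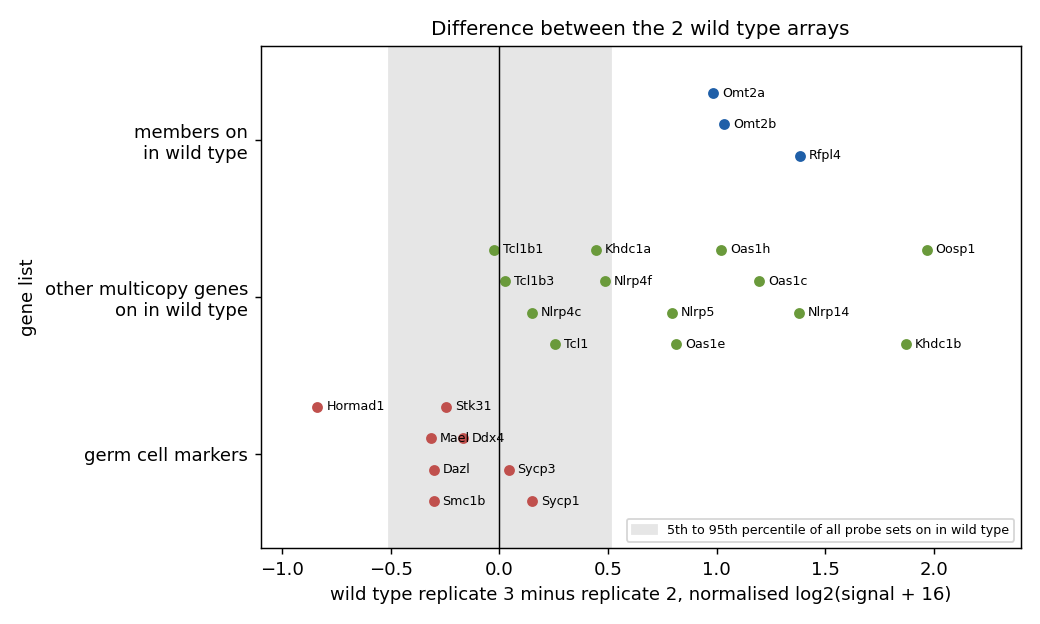
Difference between the wild type arrays (replicate 3 minus replicate 2, normalised log2 scale) for the members on in wild type, other oocyte multicopy genes on in wild type and germ cell markers; the grey band spans the 5th to 95th percentile of all probe sets on in wild type (-0.51 to 0.51). The 3 members lie to the right of the band (0.98 to 1.39), as do several of the other multicopy genes, and the germ cell markers lie between -0.84 and 0.15.

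Relatives of the members added little. Of 21 listed relatives 4 had a probe set with a single symbol (Pramel1, Pramel6, Pramel7 and Rfpl4b), 0 were on in wild type, and 0 passed in either direction (limma), with 0 at an unadjusted p below 0.05. Among 28 genes of other multicopy families of the oocyte, 22 were measured, 13 were lower in null ovaries and 0 higher, with a median log2 fold change of -2.36; with 1 probe set per gene, 13.5% of all genes were lower and 14% higher. Of the 22, 13 were on in wild type, against 67.8% of all genes. Those on in wild type and on no null array were Oas1h, Nlrp4f, Nlrp14, Oosp1, Khdc1a and Khdc1b, against 0.792% of all genes. The 3 oocyte oligoadenylate synthetase genes measured, Oas1h, Oas1e and Oas1c, had log2 fold changes of -5.06 (SE 0.41), -4.62 (SE 0.49) and -3.68 (SE 0.39). Oas1h was below the olfactory receptor level on all null arrays, and 10.2-fold lower with these arrays set to that level. The NLRP genes Nlrp4f and Nlrp14 were below it on all null arrays too, and in the same way 116-fold and 54.2-fold lower. Nlrp5 (-5.72) and the AKT coactivator gene Tcl1 (-5.32) fell but stayed on. Nlrp4c fell by 3.02. Of the 13 on in wild type 12 were lower. Tcl1b3, on in both groups and read by a probe set ending in x_at, was at -0.04 (limma adjusted p = 0.909). On wild type replicate 3, 12 of the 13 that were on had a higher level than on replicate 2, with a median difference of 0.79 on the log2 scale.

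The genes whose centred profile over the 5 arrays lay nearest to the mean profile of Omt2a, Omt2b and Rfpl4, by Euclidean distance among 18184 genes, were Iqcf5 (0.298), Fbxw18 (0.491), Gm4961 (0.61), Pkd2l2 (0.636) and Wee2 (0.639). Wee2 encodes an oocyte kinase that holds meiotic arrest, and Fbxw18 belongs to a multicopy family of F-box genes. Iqcf5 read 250.2 and 547.0 on wild type replicates 2 and 3 and 4.2, 18.8 and 4.0 on null replicates 1, 2 and 3, with the arrays in the same order as for Omt2a. With 5 arrays in 2 groups, such likeness describes these arrays only.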

How the data were processed

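RNA from 5 pools of newborn mouse ovary (3 Lhx8 null, 2 wild type) was measured on 1 array each; groups and replicate numbers come from the sample titles. The deposited values are intensities on a linear scale with a 2% trimmed mean of 500 on each array, so the authors had scaled them per array. The submitters' processing notes name GCOS for wild type arrays only. Null array software is not given in the sources used here, and no detection calls were used. Replicate 1 of the wild type is not analysed here.

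The 64 control probe sets were left out, 16 was added to each of the 45037 remaining signals and log2 taken. Array medians differed by 0.377, more than the tolerance of 0.1, so arrays were quantile normalised. Differences were tested with limma 3.58.1 in R 4.3.3 (lmFit and eBayes with a variance trend, two-sided, Benjamini-Hochberg over all probe sets, threshold 0.05), with no filter on dim probe sets. Of these probe sets 34945 had 1 symbol, 932 several and 9160 none, by the platform annotation; 34741 of the first were found by gene identifier in RefSeq GRCm38.p6, which changed 0 symbols. Lists use the brightest probe set of each gene. A fold with null arrays set to the olfactory receptor level compares mean normalised log2 levels. It depends on the level chosen and on the wild type mean, and carries no interval. No set test was run. Promoters come from RefSeq and were aligned with Biopython 1.88; figures used matplotlib 3.10.9.

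The members and lists were chosen with earlier results of these data known. Genes named by rule are all members, Lhx8, the germ cell markers and the 5 with the nearest profile. From the relatives and the other multicopy genes, up to 8 per list that were on in wild type are named, by smallest p. The 4 relatives measured, the 5 oocyte markers, and Tcl1b3, Oosp1, Khdc1a and Khdc1b are named besides. On simulated arrays (3 against 2, 45037 probe sets, 50 changed per size) limma recovered 10% of changes of 1 on the log2 scale, 48% of 2, 92% of 3 and 100% of 5, and 6.72% of calls were false. The changed probe sets were drawn over all signal levels and were far fewer than those called here (10.3% lower, 10.7% higher). These rates thus do not give the power for members at background. Alternatives covered scaling, the added constant, a filter on the dimmest 40%, the variance model, the replicate block, 1 probe set per gene, a threshold of 0.01, each array left out, and the level that counts as on.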

Additional observations from a re-analysis of the deposited data

How the results depend on the processing

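The member count of 3 lower and 0 higher in null ovaries held under deposited scaling, median centring and 1 or 64 as the added constant. It also held with no variance trend, 1 probe set per gene, a threshold of 0.01, and without null replicate 1 or 2. Without null replicate 3 there were 4 lower, with Obox6 passing, against 7.74% of all probe sets. The count fell to 1, Omt2b, against 18.3% of the probe sets kept, when the dimmest 40% were left out. That filter acts on the mean over all arrays and removed the other 10 member probe sets. The count of 2 lower than the germ cell markers was 1 with that filter, 1 with 64 as the constant, 3 with 1 as the constant and 1 to 3 over the arrays left out. The endothelial count was 1, not 2, with median centring or no variance trend, and the erythroid count 0 with no variance trend. The pregranulosa count was 3 with no variance trend, and the macrophage count 5 with the replicate block. The count of other multicopy genes lower was 11 with the dimmest 40% left out and 15 with the replicate block. The count on in wild type was 2 to 3 over its alternatives and the count on in null ovaries 0. The share of higher probe sets among all calls was 50.9%, and 35% with median centring (3396 higher, 6302 lower). That centring moved the median log2 fold change of all probe sets to -0.13 from -3e-04, and with deposited scaling the median was 0.11. Replicate numbers 2 and 3 occur in both groups, and the deviations of same-numbered arrays correlated at 0.008. With 2 wild type arrays this cannot show whether same-numbered pools shared a litter, a day or a batch. With the replicate block the count lower was 3 and the log2 fold changes of Omt2b, Omt2a and Rfpl4 were -4.84, -4.28 and -3.60. The number of arrays, and signals close to background, limit what can be said of the Obox and Oog genes.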
